A study of Saccharomyces cerevisiae with 6 samples.

Results

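The genes described here are those of thiamine (vitamin B1) synthesis and uptake in budding yeast: THI2, THI3, THI4, THI6, THI7, THI20, THI21, THI22, THI72 and THI80. They were taken by name from a list of 10 genes, each matched on the gene symbols of the authors' deposited table, and all 10 were found among the 5520 genes that a probe set of the array named alone. Each member had 1 such probe set. Gene expression was measured in strain DBY746, labelled wild-type, grown at 30 °C in SDC medium of pH 6 from 0.002 to 2 A600 units per ml. The 3 control cultures received 0.3% ethanol, the vehicle, from the start, and the 3 myriocin cultures had the same final ethanol and 300 ng/ml myriocin. Myriocin inhibits serine palmitoyltransferase, the enzyme that starts sphingolipid synthesis. The samples are labelled as biological replicates, 3 per group, and each was hybridised to 1 single-colour array.

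Thiamine diphosphate, the active form of the vitamin, is the cofactor of enzymes that cut or transfer carbon units next to a carbonyl group, among them pyruvate decarboxylase, transketolase and the dehydrogenases of pyruvate and ketoglutarate. Yeast builds it from a thiazole part and a pyrimidine part, which are joined as thiamine phosphate, or takes thiamine up from the medium and phosphorylates it. When thiamine is scarce, genes of both routes are known to be induced together through the regulators Thi2, Thi3 and Pdc2.

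On each array 95.3% to 95.7% of genes lay above a log2 signal of 2.07, the highest value of 50 negative-control probe sets, and array medians lay between 11.05 and 11.08. All 10 members lay above that ceiling on all 6 arrays, between 3.73 and 12.10. The hybridisation controls added to the arrays, 26 probe sets above background, were all lower on the myriocin arrays, by 0.04 to 0.96 log2 units and with a mean difference of -0.315. A second array scale, which sets the mean of these controls equal on all arrays, moves the median of all genes from -0.03 to 0.29. Genes that mark an alpha mating type (MF(ALPHA)1, MF(ALPHA)2, STE3 and SAG1) read 14.16 to 15.51. Markers of an a mating type read 1.28 to 3.03, apart from STE6 at 6.51 to 7.22. The labels give no mating type.

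In cells grown with myriocin, 3 of the 10 genes rose and 3 fell. THI21 and THI4, both of the synthesis route, rose by 3.0 and 2.67 on the log2 scale, and THI6, which encodes the enzyme that joins the parts of the vitamin, rose by 0.74. THI80, the kinase that makes thiamine diphosphate, fell by 1.70, the regulator gene THI2 by 0.85 and the uptake gene THI7 by 0.38. THI3, THI20, THI22 and THI72 did not pass the test. With the samples paired by their numbers, THI72 passed and THI7 did not. A change was called at an adjusted p under 0.05 in limma, fitted on all 5520 genes with Benjamini-Hochberg adjustment. By that rule 55.2% of all genes were called, 26.3% higher and 28.9% lower, so the share of members called lay near that of all genes. The median log2 fold change of the members was 0.14, beside -0.03 for all genes. With 3 arrays a group, the standard error (SE) of a member's log2 fold change was 0.07 to 0.15, beside a median of 0.11 over all genes. In a yeast culture, a change in every cell and a larger change in some of the cells cannot be told apart.

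**Figure D1:**
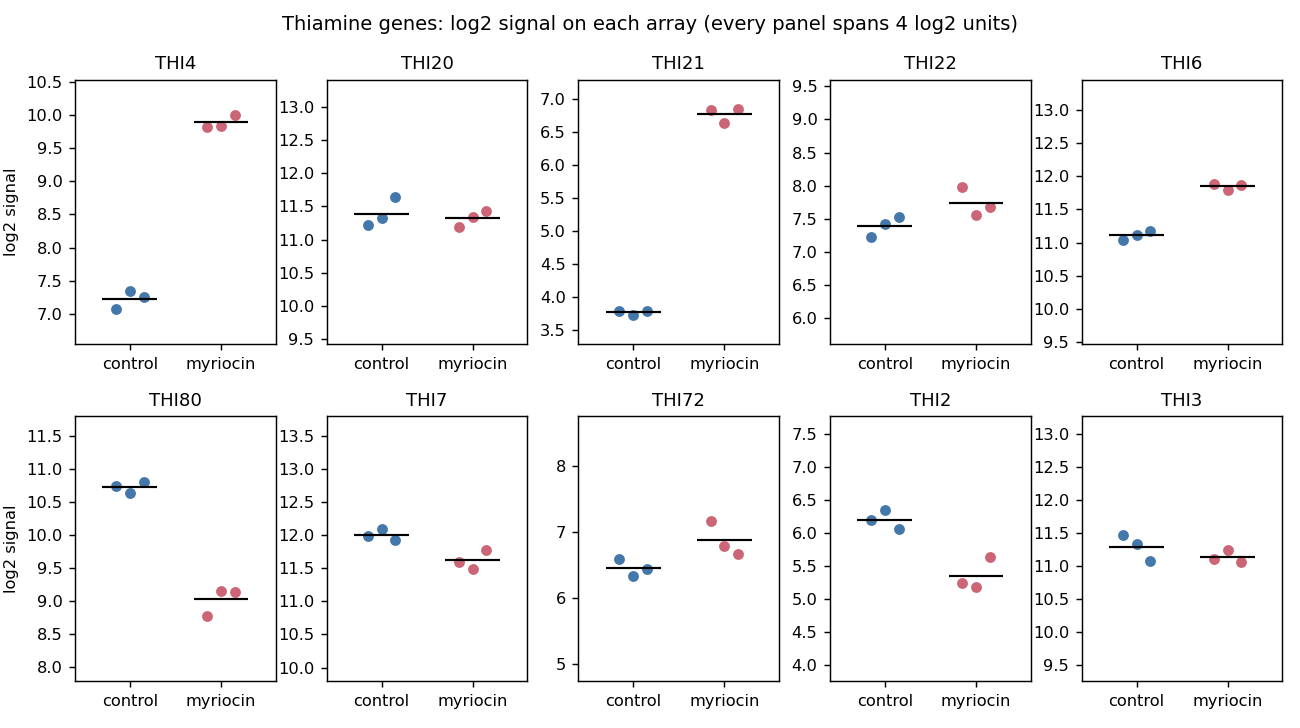
Log2 signal of the 10 thiamine genes on each of the 6 arrays, control in blue and myriocin in red, with the group mean as a line; each panel spans 4 log2 units, so distances compare between panels while levels do not. THI4 and THI21 stand far apart between groups, THI80 falls, and the points of THI20 and THI3 overlap.

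The thiazole part is made by Thi4 (YGR144W), which gives up a sulfur atom of its own to form the ring. Its log2 signal was 7.06, 7.34 and 7.26 in control replicates 1 to 3 and 9.83, 9.83 and 10.01 in myriocin replicates 1 to 3. Every myriocin array lay above every control array. The mean went from 7.22 ± 0.14 (SD, n = 3) to 9.89 ± 0.10 (SD, n = 3), a 6.37-fold rise (log2 fold change 2.67, SE 0.10, limma adjusted p = 3.23e-05). THI4 had the 101st highest log2 fold change of the 5520 genes.

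The pyrimidine part is phosphorylated by Thi20 (YOL055C) and Thi21 (YPL258C), a pair of closely related kinases, and Thi22 (YPR121W) resembles both without a known part in the pathway. THI21 read 3.79, 3.73 and 3.79 in the control arrays and 6.82, 6.64 and 6.85 with myriocin. No array of one group came near the other. Its 8.0-fold rise (log2 fold change 3.0, SE 0.08, limma adjusted p = 1.51e-05) ranked 86 among the 5520 genes from the highest, and in the authors' deposited table THI21 ranked 5 of 5900 probe sets by p.

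THI20 read 11.22, 11.33 and 11.64 in the control arrays and 11.20, 11.34 and 11.42 with myriocin. The groups overlapped, with control replicate 3 the highest of all 6. The log2 fold change was -0.07 with a 95% confidence interval from -0.39 to 0.24 (limma adjusted p = 0.663). THI22 read 7.23, 7.42 and 7.53 in the control arrays and 7.98, 7.55 and 7.68 with myriocin. Its lowest myriocin array, replicate 2, lay only just above control replicate 3. The log2 fold change of 0.34 (95% confidence interval 0.01 to 0.68) missed the threshold (limma adjusted p = 0.0738), and it passed on the scale of the hybridisation controls (0.66, limma adjusted p = 0.0112). After quantile normalization it was 0.14 (limma adjusted p = 0.459).

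Differences in log2 signal between paralogs within an array show how unequal these responses were. THI20 minus THI21 was 7.43 to 7.85 in the control arrays and 4.37 to 4.70 in the myriocin arrays. THI21 thus changed by 3.07 log2 units more than THI20, with no overlap between the groups. THI21 minus THI22 moved from -3.62 ± 0.16 to -0.97 ± 0.17 (SD, n = 3 each). For THI20 minus THI22 the change was -0.42, or -0.21 after quantile normalization, and it rested mainly on myriocin replicate 1, whose difference was 3.22 where the other two were 3.79 and 3.75. In the exact permutation test over the 6 samples, two-sided, each of the 4 paralog pairs compared gave p = 0.1, also after adjustment over the pairs, which is the smallest p that 3 against 3 allows. Probe sets of close paralogs can share some signal, so a small difference between them is uncertain.

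**Figure D2:**
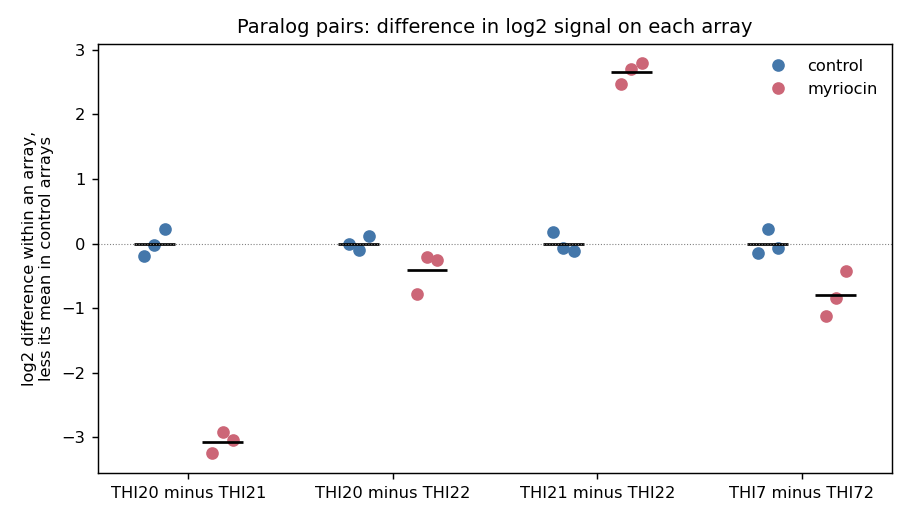
Difference in log2 signal between the genes of 4 paralog pairs on each array, less its mean in the control arrays (blue), with group means as lines. The myriocin arrays (red) lie 3.07 below the control arrays for THI20 minus THI21 and 2.66 above them for THI21 minus THI22, and the 2 other pairs differ by less.

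Thi6 (YPL214C) joins the thiazole and pyrimidine parts to thiamine phosphate and also phosphorylates the thiazole part. THI6 read 11.04, 11.11 and 11.17 in the control arrays and 11.88, 11.79 and 11.87 with myriocin. The rise was small next to that of THI4, but the replicates were close together and the groups stood clear of each other. Means were 11.11 ± 0.06 and 11.85 ± 0.05 (SD, n = 3 each), a 1.67-fold rise (log2 fold change 0.74, SE 0.07, limma adjusted p = 0.00052).

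Thi80 (YOR143C), thiamine pyrophosphokinase, turns thiamine into thiamine diphosphate and so serves newly made and imported thiamine alike. THI80 read 10.74, 10.64 and 10.81 in the control arrays and 8.78, 9.16 and 9.14 with myriocin. All myriocin arrays lay well below the control arrays, replicate 1 lowest. The mean fell from 10.73 ± 0.08 to 9.03 ± 0.21 (SD, n = 3 each), and the level was 3.25-fold lower (log2 fold change -1.70, SE 0.12, limma adjusted p = 0.000251). It was the 140th lowest log2 fold change of all genes. The kinase at the end of the route thus moved against THI4, THI21 and THI6, on both array scales: on the scale of the hybridisation controls these genes had log2 fold changes of -1.38, 2.99, 3.32 and 1.05 in that order.

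Uptake of thiamine runs through Thi7 (YLR237W), the high-affinity permease of the plasma membrane, and Thi72 (YOR192C) is a related permease thought to carry thiamine or a related compound. THI7 read 11.99, 12.10 and 11.92 in the control arrays and 11.60, 11.49 and 11.78 with myriocin. The groups did not overlap, though control replicate 3 and myriocin replicate 3 lay close together. The fall of 0.38 (log2 fold change -0.38, SE 0.10, limma adjusted p = 0.0186) depended on the settings. Pairing the samples by their numbers ended its call (limma adjusted p = 0.0501), as did the scale of the hybridisation controls (log2 fold change -0.07, limma adjusted p = 0.69). It was also lost without control replicate 2, myriocin replicate 1 or myriocin replicate 2 (limma adjusted p = 0.0676, 0.0545 and 0.0517).

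THI72 read 6.59, 6.33 and 6.45 in the control arrays and 7.17, 6.79 and 6.66 with myriocin. All myriocin arrays were higher, replicate 3 by the least. The log2 fold change of 0.42 (SE 0.15, 95% confidence interval 0.06 to 0.78) lay at the threshold (limma adjusted p = 0.0509). It passed with the samples paired (limma adjusted p = 0.0271), on the scale of the hybridisation controls (0.00677), with equal array medians (0.0471) and without myriocin replicate 3 (0.0377). After quantile normalization THI72 changed by only 0.21 (limma adjusted p = 0.216). Without any 1 of the other arrays it missed the threshold (limma adjusted p = 0.0602 to 0.147). THI7 minus THI72 within an array went from 5.55 ± 0.19 to 4.75 ± 0.35 (SD, n = 3 each), with no overlap between groups. The change in this difference was -0.80, or -0.59 after quantile normalization. The exact permutation test gave its smallest possible p of 0.1 for this pair.

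Among the regulators, Thi2 (YBR240C) is a zinc finger protein that activates the pathway's genes, and THI2 read 6.19, 6.35 and 6.07 in the control arrays and 5.25, 5.18 and 5.64 with myriocin. Each myriocin array lay below each control array. The gene fell by 0.85 on the log2 scale (SE 0.14, limma adjusted p = 0.00371) and was 1.80-fold lower. Thi3 (YDL080C), a relative of pyruvate decarboxylase that senses thiamine diphosphate and acts with Thi2, overlapped between the groups. THI3 read 11.46, 11.34 and 11.07 in the control arrays and 11.10, 11.24 and 11.06 with myriocin, a difference of -0.16 on the log2 scale (95% confidence interval -0.44 to 0.13, limma adjusted p = 0.299).

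**Figure D3:**
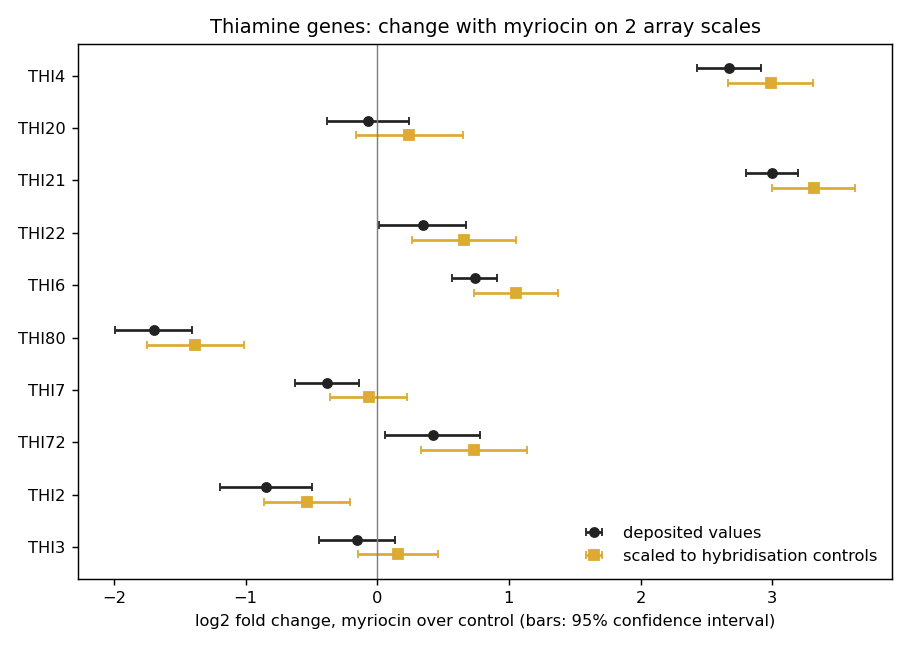
Log2 fold change of each thiamine gene, myriocin over control, with its 95% confidence interval from limma, in the deposited values (black circles) and on the scale of the hybridisation controls (yellow squares). THI4, THI21 and THI6 stay above 0 and THI80 and THI2 below 0 on both scales, while THI7 moves from -0.38 to -0.07.

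Across the 10 members, the groups of 3 arrays did not overlap for 8, beside 67.0% of all genes. On the scale of the hybridisation controls, 5 members were called higher (THI4, THI6, THI21, THI22 and THI72) and 2 lower (THI2 and THI80), beside 40.4% and 12.1% of all genes. THI4, THI6, THI21, THI80 and THI2 kept their calls without any 1 array and with the samples paired. The authors' deposited list of changed probe sets, 54.9% of those on the array, holds 6 of the 10 members, the same 6 called here. That list rests on the same 6 arrays and on the authors' own p-values, where the calls here use an adjusted p. The match is therefore no independent result. In the authors' deposited table the signed folds were 8.0 for THI21, 6.37 for THI4 and -3.25 for THI80.

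**Figure D4:**
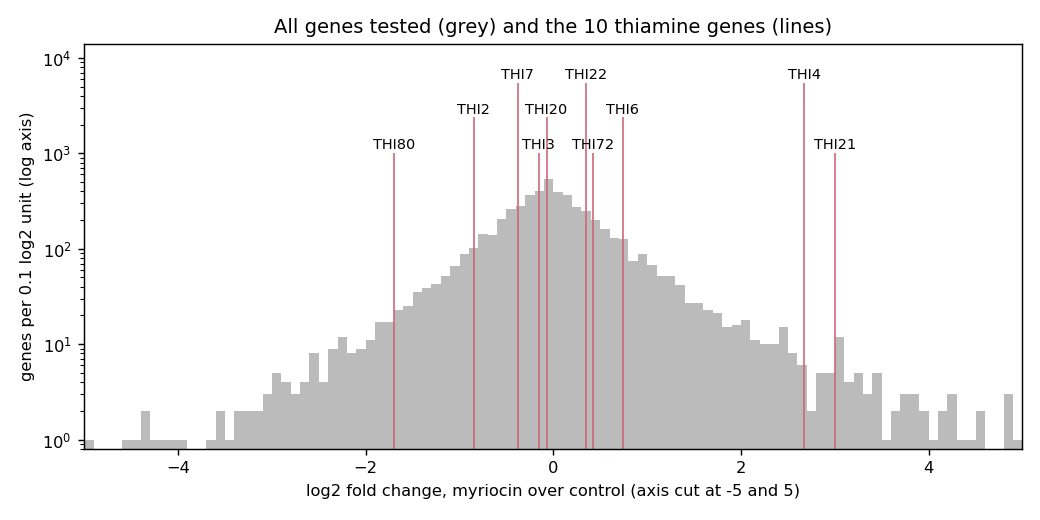
Distribution of log2 fold changes over the 5520 genes (grey bars, genes per 0.1 log2 unit, log axis) with the 10 thiamine genes as red lines; 37 genes lie beyond the ends of the axis. THI21 and THI4 stand in the sparse upper tail, THI80 in the lower one, and the other members lie within the bulk.

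Only 2.07% of all genes changed by as much as THI21 in either direction, 2.57% by as much as THI4 and 6.65% by as much as THI80. For THI6 the share was 26.2%, and for THI7 it was 49.6%, so the latter's change was of a middling size in these data. By distance over the 6 arrays between log2 values less the control mean, the genes most like THI4 were CBF2, a kinetochore protein gene (0.44), PAU5 of the seripauperin family (0.46) and SSA4, an Hsp70 chaperone gene (0.55). The 3 most like THI7 were RML2 (0.099) and MRPL1 (0.128), both of the large mitochondrial ribosomal subunit, and RHO4, a small GTPase gene (0.134). The values were not scaled, so these distances mainly describe a change of like size and direction, over 6 arrays only.

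The rest of the pathway was read from lists of named genes, which also hold enzymes that use thiamine diphosphate and permeases related to Thi7 that carry other compounds. Thiamine's pyrimidine part comes from Thi5, Thi11, Thi12 and Thi13, near-identical enzymes that consume histidine and pyridoxal phosphate. The 4 genes share 1 probe set, which read 10.72, 10.77 and 11.08 in the control arrays and 12.12, 12.22 and 12.28 with myriocin. All myriocin arrays lay above all control arrays. The rise was 2.55-fold (log2 fold change 1.35, SE 0.11, limma adjusted p = 0.000401 in a fit of all 5716 non-control probe sets, of which 54.3% were called), and which of the 4 genes gave it cannot be read.

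Pyridoxal phosphate, the vitamin B6 cofactor, is made by Snz and Sno proteins, and in the RefSeq annotation of assembly R64 SNZ2 lies next to THI12 and SNZ3 next to THI5. SNZ1 read 7.50, 7.62 and 7.91 in the control arrays and 12.18, 11.27 and 11.55 with myriocin, a rise of 15.9-fold (log2 fold change 3.99, SE 0.25, limma adjusted p = 0.000161). The probe set shared by SNZ2 and SNZ3 rose by 0.82 (SE 0.09, limma adjusted p = 0.000862 in the fit of all probe sets), from 11.24 to 11.49 in the control arrays to 12.11 to 12.18 with myriocin. No probe set of the Sno partners, which supply the ammonia, passed the test. The one of SNO2 and SNO3 had a log2 fold change of -0.04 (95% confidence interval -0.33 to 0.25), and SNO1 lay under the background ceiling on all arrays. The groups of the SNO2 and SNO3 probe set overlapped, where SNZ1 and the SNZ2 and SNZ3 probe set rose.

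Of 5 other thiamine genes, PDC2 rose, PHO3 and NRT1 fell, and TPC1 and PET18 did not pass. PHO3, an acid phosphatase that frees thiamine from its phosphates outside the cell, read 13.16, 13.21 and 12.74 in the control arrays and 10.80, 11.57 and 10.82 with myriocin. It was 3.93-fold lower (log2 fold change -1.97, SE 0.24, limma adjusted p = 0.00118), with every myriocin array at least 1 log2 unit below the control arrays. PDC2, the regulator that acts with Thi2 and Thi3, rose by 0.36 on the log2 scale (SE 0.11, limma adjusted p = 0.0331). That call was lost in the paired fit (limma adjusted p = 0.0701), after quantile normalization (0.318) and with any 1 of control replicates 2 and 3 and myriocin replicates 2 and 3 left out (0.0728 to 0.0953). For TPC1, the mitochondrial carrier of thiamine diphosphate, the log2 fold change was 0.09 (limma adjusted p = 0.483). PET18 had a log2 fold change of 0.42 and passed with the samples paired (limma adjusted p = 0.0418), on the scale of the hybridisation controls (0.00956) and without control replicate 3 (0.0205). After quantile normalization its change was 0.21 (limma adjusted p = 0.26).

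NRT1, the nicotinamide riboside permease, is a close relative of THI7 and its probe set may share signal with it. Its log2 fold change was -0.61 (SE 0.15, limma adjusted p = 0.0166), a call lost on the scale of the hybridisation controls (limma adjusted p = 0.185) and without myriocin replicate 1 or 3 (0.0535 and 0.0575). Of the other permeases of this family, the uridine permease gene FUI1 fell by 2.30 (SE 0.32, limma adjusted p = 0.00172). Its 3 control arrays, 12.25 to 12.37, were close together and its myriocin arrays spread from 9.37 to 10.70. The allantoin permease gene DAL4 rose by 0.66 (SE 0.09) at a low signal, 2.44 to 2.60 in the control arrays. Those values lie within the range of the a mating type markers other than STE6, 1.28 to 3.03, so its control level may be background. FUR4, the uracil permease gene, had a log2 fold change of -0.92 with a wide interval (-1.98 to 0.14, limma adjusted p = 0.12).

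Enzymes that use thiamine diphosphate moved both ways: 5 of 11 rose and 2 fell, with a median log2 fold change of 0.19, beside 26.3% higher and 28.9% lower among all genes. PXP1, 1 of the 2 that fell, could enter this count only because the authors' list of changed probe sets named it. TKL2, a transketolase, lay under the background ceiling in all control arrays and at 10.54 to 11.38 with myriocin, at least 484-fold higher (limma adjusted p = 7.47e-06), while TKL1, the transketolase of growing cells, had a log2 fold change of 0.08 (95% confidence interval -0.10 to 0.26). ARO10, a decarboxylase of amino acid breakdown, rose by 2.51 (SE 0.32, limma adjusted p = 0.0013), with myriocin arrays from 6.65 to 7.89. KGD1, a subunit of ketoglutarate dehydrogenase, rose by 1.26 (SE 0.13, limma adjusted p = 0.000622) and PDA1, of pyruvate dehydrogenase, by 0.33 (SE 0.07, limma adjusted p = 0.007).

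The main pyruvate decarboxylase gene PDC1 read 15.40 to 15.45 in the control arrays and 15.32 to 15.51 with myriocin, and its log2 fold change was -0.04 (limma adjusted p = 0.694). For PDC5 the log2 fold change was 0.19 (limma adjusted p = 0.0593). PDC6 rose by 0.31 (limma adjusted p = 0.0296), a call lost in the paired fit (limma adjusted p = 0.0533), after quantile normalization (0.359) and without any 1 array except myriocin replicate 1 (0.0533 to 0.0898). ILV2, of branched-chain amino acid synthesis, fell by 0.54 (SE 0.09, limma adjusted p = 0.00405). PXP1 fell by 0.58 (SE 0.10), but its probe set could be named only from the authors' list of changed probe sets, so that call is no independent count. Both decreases lost their calls on the scale of the hybridisation controls (limma adjusted p = 0.17 and 0.193).

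**Figure D5:**
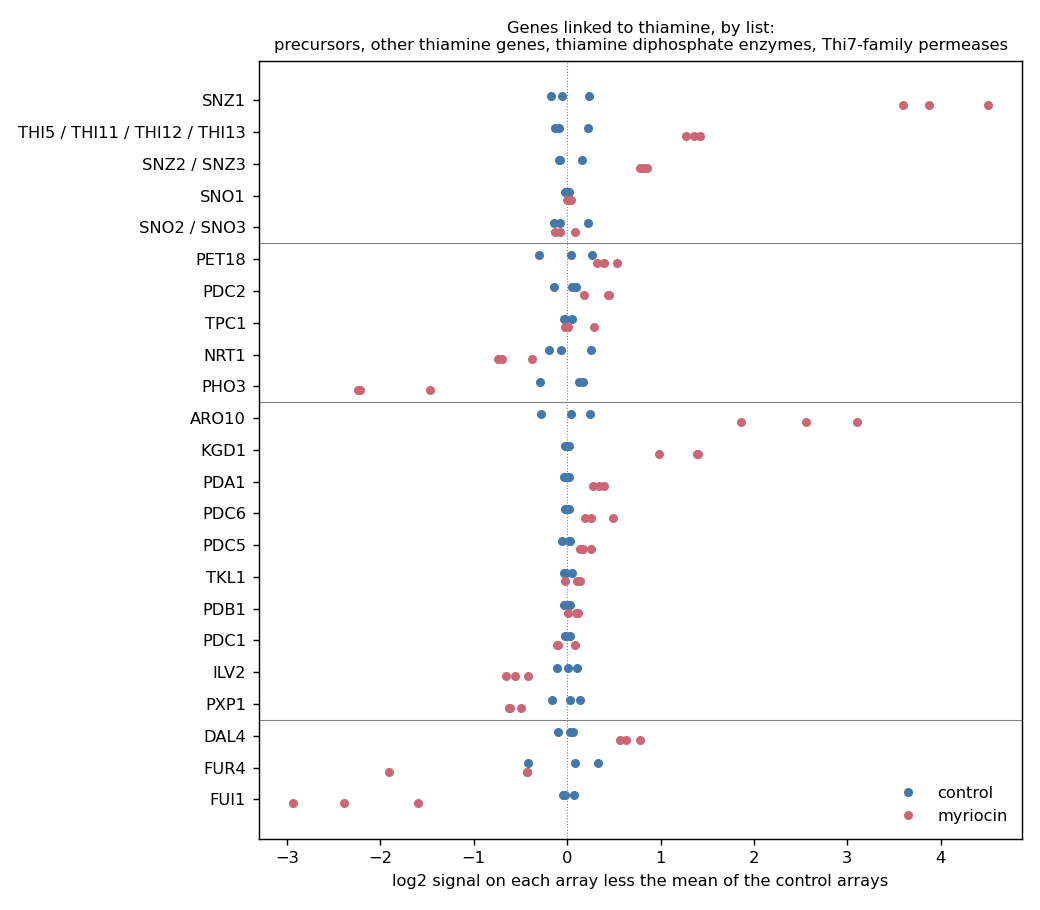
Log2 signal on each array less the mean of the control arrays for genes linked to thiamine, control in blue and myriocin in red; lines part the precursor genes, other thiamine genes, enzymes using thiamine diphosphate and permeases related to Thi7. The shared THI5 probe set and SNZ1 lie to the right and PHO3 and FUI1 to the left; TKL2, under background in the control arrays, is left out for scale.

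Genes next to the members on the chromosomes, in RefSeq order, moved both ways. Of 17 such genes with a probe set of their own, 5 were called higher and 3 lower, beside 26.3% and 28.9% of all genes. In 1 case a called neighbour moved the same way as a called member: SKN1, beside THI4, rose by 1.06. Both measured neighbours of THI6, CBP3 and LEA1, fell, by 0.26 and 1.05, where THI6 rose. The THI5 family genes are not members, so their neighbours are not among the 17. Of these, AAD10, AAD14, AAD4 and AGP3 were called higher, by 1.003, 0.54, 1.63 and 1.39. The probe set of SNZ2 and SNZ3, also beside this family, rose by 0.82. All moved the same way as the THI5 family probe set. Whether position played a part was not tested.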

How the data were processed

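Each of the 6 arrays has a table column of log2 signals that the authors normalised before they deposited them. Partek is named for the samples, per the submitters' processing notes; its version and how the probe sets were summarised and normalised are not given there. Group mean differences equal the log2 of the authors' deposited ratio to within 8.48e-05. The deposited table also gives, per the file headers, p-values and a signed fold score per probe set.

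Of 5900 probe sets, 184 were controls, 5546 named 1 gene (128 only through the authors' tables), 82 several and 88 none. The brightest probe set was used for 25 genes with more than 1. No array build is named, so no coordinates are given.

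The members and lists were chosen with earlier results of these data known. The group difference came from lmFit and eBayes of limma 3.58.1 (R 4.3.3), two-sided, without covariates or a signal filter. Paralogs were compared by exact permutation in scipy 1.17.1. Members were always named, list genes with their values, and 3 genes of most like pattern each for THI4 and THI7; chromosome neighbours were chosen after their values were seen.

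Deviations from group means correlated at 0.167, 0.238 and 0.171 for equal replicate numbers and from -0.159 to -0.0497 for unequal ones. Deviations within a group cancel out, so positive values for equal numbers make those for unequal numbers negative on average. The contrast between them is partly built in. The numbers may pair the samples, though the labels do not say so. The main fit and the permutation test leave this pairing out, and the paired fit is given where it changes a call.

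On simulated arrays of 5520 genes, 13 of 50 changes of 0.5, 83 of 100 of 1 and 48 of 50 of 2 log2 units were recovered, and 6 of 5320 unchanged genes were called. Far fewer genes were changed there than the 55.2% called in the data, and the simulated arrays held no pairing. The shares recovered therefore only check the code and do not tell how many true changes the fit to the data would find. Alternatives were other normalisations, array scales, filters, variance models, thresholds and left-out arrays. Figures were drawn with matplotlib 3.10.9.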

Additional observations from a re-analysis of the deposited data

How the results depend on the processing

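Beside 3 members called higher and 3 lower, and 8 and 5 of the 21 linked genes, the scale of the hybridisation controls gave 5 members higher and 2 lower, and 13 linked genes higher and 2 lower. The 21 include permeases related to Thi7 that carry other compounds. PXP1, named only from the authors' list of changed probe sets, is among the 5 called lower. Of all genes, 26.3% were called higher and 28.9% lower, against 40.4% and 12.1% on the scale of the hybridisation controls. That scale adds the same amount to every log2 fold change. Leaving out the dimmest 25% of genes removed 5 members, THI4 and THI21 among them, and left 1 member and 3 linked genes called higher. Of the 4140 genes kept, 1122 were called higher and 1316 lower. At an adjusted p under 0.1 there were 5 members higher. No count over all genes was made at that threshold, so this larger count is not read as a result about the members. With the samples paired as a replicate block, 4 members were called higher and 2 lower, THI72 gained and THI7 lost. Of all 5520 genes, 1437 were called higher and 1507 lower in that fit. Without any 1 array 3 to 4 members were called higher and 2 to 3 lower, beside 1162 to 1339 and 1209 to 1438 of all 5520 genes.

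Directions turned only for genes that were not called. THI3 and THI20 went to 0.16 and 0.24 on the scale of the hybridisation controls, and THI20 ranged from -0.16 to 0.049 without 1 array. PDC1 went to 0.28 on that scale and to 0.022 after quantile normalization. TPC1 went to -0.098 after quantile normalization and ranged from -0.0084 to 0.15 without 1 array. The shared SNO2 and SNO3 probe set went to 0.28 on that scale and ranged from -0.11 to 0.070 without 1 array. Of 559 values under an alternative, of single genes and of the probe sets shared by SNZ2 and SNZ3 and by SNO2 and SNO3, 500 kept direction and side of the threshold, 31 lost a call, 18 gained one and 10 turned. Several alternatives left a gene's log2 fold change as it was, among them the other thresholds and the mean over a gene's probe sets. The count of 500 is therefore no measure of robustness. The THI5 family probe set kept its call under each of its alternatives, from 1.28 to 1.67. All members lay above the background ceiling, and SNO1 was below it. THI21 was still dim in the control arrays, at 3.73 to 3.79, where 25% of genes had a mean log2 signal under 9.22.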
